A study of Mus musculus with 8 samples.

Results

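Basal cells of the mouse lung were taken as all cells that carry the authors' annotation Basal, and there were 192 of them among 40,074 annotated single cells from 8 mice. They make up the whole of cluster 29 of the authors' clustering. The study profiled dissociated lung tissue by droplet single-cell RNA sequencing (10x Genomics 3′ chemistry, version 3) in Sftpc-CreERT2-mTmG mice on a C57BL/6 background, with 4 mice exposed to cigarette smoke (CS) for 10 months, 6 hours a day on 5 days a week, and 4 littermates kept in room air (RA). All mice, RA mice included, received tamoxifen at 8 to 10 weeks of age, which switches the red reporter tdTomato to the green reporter eGFP in cells that express Sftpc. Cells were sorted by magnetic beads and remixed at 10% CD45+ and 90% CD45- cells before loading, so that shares are given among epithelial cells. The CS mice C2, C5, D2 and D5 gave 15, 34, 37 and 35 basal cells, 121 in total. The RA mice F1, F3, M1 and M3 gave 10, 13, 36 and 12, 71 in total. Levels are the mean number of transcripts (unique molecular identifiers, UMIs) per 10,000 transcripts of a cell, averaged over the basal cells of 1 mouse, and n counts mice. Since unspliced reads were counted too, which can favour long genes, levels are compared between cell types and not between genes.

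Basal cells are the stem cells of the pseudostratified airway epithelium. They sit on the basement membrane through hemidesmosomes, carry an intermediate filament network of basal keratins, depend on the transcription factor p63 (Trp63) and can renew themselves or give rise to club and ciliated cells. In mice they are largely confined to the trachea and main bronchi, while the smaller airways are lined by club cells, which secrete Scgb1a1 and metabolise inhaled compounds through the cytochrome P450 Cyp2f2.

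A basal cell held a median of 9394 UMIs, against 32,786 for a club cell and 4055 for a B cell. The basal cells of 1 mouse held between 90,561 UMIs in F1 and 460,048 in M1. Barcodes of 4 basal cells also occurred in another library, and none of their partners was a basal cell. Sex-linked transcripts went against the labels in CS mice. Both CS libraries labelled male held Xist, at 6.71 and 8.26 per 10,000 in basal cells, and both labelled female held 0.30 and 0.02, with Ddx3y at 0.55 and 0.63. In RA mice sex-linked transcripts went with the labels, with Xist in 10 of 10 cells of F1 and 13 of 13 of F3, labelled female. A Ddx3y transcript was found in 16 cells of M1 and 3 of M3, labelled male. Because of the CS mice, labelled sex was not used.

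The markers bore out the annotation. Krt5, a keratin of basal cells (chromosome 15, 101707070 to 101712898, minus strand, GRCm38), reached 2.68 ± 1.47 per 10,000 in basal cells (SD, n = 8 mice). Trp63, the basal cell transcription factor (chromosome 16, 25683763 to 25892102, plus strand), reached 7.70 ± 2.47 (SD, n = 8). Krt15, a second keratin of basal cells (chromosome 11, 100131758 to 100135928, minus strand), reached 13.9 ± 5.52 (SD, n = 8). Each was highest in basal cells among the 32 cell types, and the next type was goblet cells for all of them, with Krt5 at 0.0286, Trp63 at 0.105 and Krt15 at 0.981. A Krt5 transcript was found in 109 of 192 basal cells (56.8%, 95% exact binomial interval 49.4 to 63.9%), a Trp63 transcript in 175 (91.1%, 86.2 to 94.8%) and a Krt15 transcript in 177 (92.2%, 87.4 to 95.6%). In B cells, which should lack these genes, the shares were 0.0428%, 0.257% and 0.214%. All 3 transcripts were found together in 101 cells, 71 cells held 2 of them and 16 held 1. No transcript of the 3 was found in 4 cells. These intervals cover counting error only. The clusters were made from the same genes, so that levels in basal cells against other types are a description with no test.

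The 3 markers varied among mice. Krt5 lay between 1.57 and 3.73 per 10,000 in CS mice (C2 3.66, C5 3.73, D2 1.57, D5 2.33). In RA mice it was 1.09 in F1, 0.59 in F3, 4.13 in M1 and 4.36 in M3, so that the RA mice held both the lowest and the highest values. Trp63 was 11.48 in C2, 5.89 in C5, 7.37 in D2 and 11.58 in D5, against 5.14, 6.54, 6.30 and 7.27 in F1, F3, M1 and M3. The groups overlapped for both genes. Krt15 was 10.35, 16.60, 10.29 and 10.33 in C2, C5, D2 and D5 and 16.58, 6.20, 17.02 and 23.45 in F1, F3, M1 and M3, where the RA mice again spanned the CS mice.

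Of 20 basal cell markers listed, 19 were found in a basal cell, 17 in at least 10% of them, and 13 were higher in basal cells than in any other type. Aqp3, a water and glycerol channel, reached 15.0 ± 3.46 per 10,000 (SD, n = 8) against 0.439 in goblet cells, the next type. Dapl1, a marker of stratified epithelium, varied little among mice, at 5.11 ± 0.615 (range 4.43 to 6.02). F3, which encodes tissue factor, the initiator of coagulation, reached 23.3 ± 7.44 against 2.96 in AT1 cells, the next epithelial type. Krt17 was found in 65.6% of basal cells, at 2.26 ± 0.980. Krt14, a keratin of basal cells in stratified epithelia and injured airways, was found in only 5 of 192 cells, at 0.057 ± 0.121. Of the remaining members, Perp, a desmosomal protein, reached 6.12, Ngfr, the low-affinity nerve growth factor receptor, 0.514, and Snai2, a transcription factor, 0.533, each highest in basal cells. Icam1, Itga6 and Bcam were higher in other types, endothelial cells among them.

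**Figure D1:**
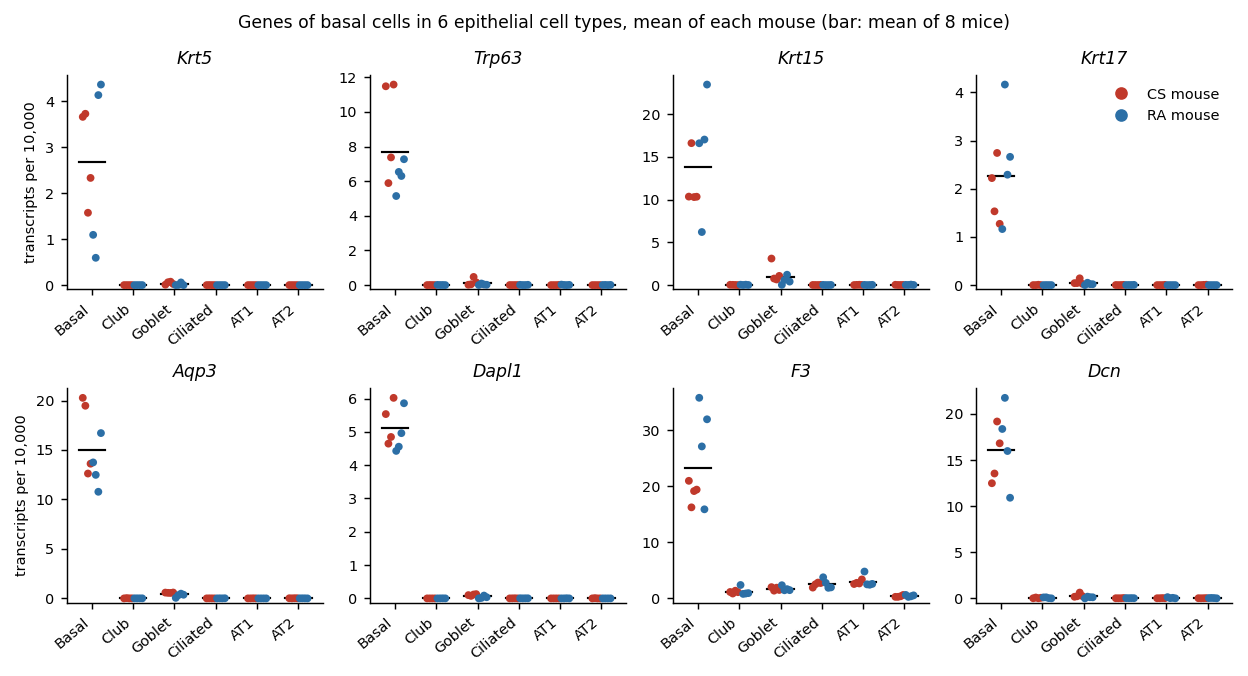
Mean transcripts per 10,000 (y axis) of 8 genes in 6 epithelial cell types (x axis), with 1 point per mouse (red CS, blue RA) and a bar at the mean of 8 mice. In every panel the basal cells of all 8 mice lie above the other 5 types, while the mice differ among themselves, as for Krt5 between 0.59 and 4.36.

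The basal cells also differed from other epithelial cells in genes outside the marker list. Among 6126 genes found in at least 25% of basal cells, 1936 were higher in basal cells than in each of the other 6 epithelial types, 52 at least 5-fold (with 0.1 added to both levels), and 368 were highest in basal cells among all types. With Scgb1a1 left out of the total of each cell type, these counts were 1765, 39 and 336. The largest ratio was that of Abi3bp, a secreted matrix protein, at 12.4 ± 6.81 per 10,000 against 0.201 in goblet cells, a ratio of 41.6. Several of the 20 genes with the largest ratios encode matrix or signalling proteins, namely Dcn (decorin), Ltbp4 (a binding protein of latent TGF-beta), Gpc6 (a glypican), Dlk2 (a relative of the Notch regulator Dlk1) and Wnt5b (a Wnt ligand). Defb1, a beta-defensin that kills bacteria, was also among them, at 2.55 ± 1.01. Ltbp4 and Gpc6 were higher outside the epithelium. Ltbp4 stood at 3.31 in basal cells and 11.7 in adventitial fibroblasts, and Gpc6 at 1.29 in basal cells and 13.6 in smooth muscle cells. Dcn is best known from fibroblasts. It was found in 187 of 192 basal cells, at 16.1 ± 3.66 (range over mice 10.9 to 21.7), against 0.0554 in club cells and 76.6 in adventitial fibroblasts. Of the other members of the fibroblast list, Gsn (gelsolin, an actin-binding protein of many cell types) was found in 188 basal cells, at 8.37 ± 2.38 against 249 in adventitial fibroblasts. Mgp was found in 29 basal cells, and Col1a1, Col1a2, Col3a1, Inmt and Pdgfra in 1 to 6 each. Dcn was found in 2.31% of B cells, and after each cell was thinned to 2000 transcripts in 85.4% of basal and 1.36% of B cells.

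Keratins formed 2 patterns. Krt5, Krt15 and Krt17 peaked in basal cells, while the keratins of simple epithelium were shared with other types. Krt19 reached 9.30 ± 3.16 per 10,000 in basal cells and 9.32 in AT1 cells. Krt7 reached 4.97 and Krt18 5.16, against 19.9 in AT1 cells and 21.7 in neuroendocrine cells, and Krt8 at 2.72 lay below the 3.19 of club cells. Of 18 hemidesmosome and basement membrane genes, 16 were found in at least 10% of basal cells. Itgb4, whose integrin chain anchors hemidesmosomes, was highest in basal cells at 2.97 ± 0.744, and so was Col17a1, the hemidesmosomal collagen, at 0.688 ± 0.461. Dst, a linker of hemidesmosomes to keratin, reached 7.55 against 1.40 in club cells. The laminin chains of the epithelial basement membrane Lamb3 and Lama3 were both higher in AT1 cells, with Lamb3 at 2.41 against 3.14 and Lama3 at 0.165 against 7.07.

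Among transcription factors and Notch genes, Klf5, Foxa1, Ehf, Grhl2, Foxp2 and Sox21 were each highest in basal cells. Foxa1, a forkhead factor of airway epithelium, stood at 1.58 ± 0.267 per 10,000 and was found in 77.6% of cells. Its relative Foxa2 stood at 0.0281 ± 0.0367, against 0.572 in club cells, and was found in 3.12% of basal cells. Of the Notch genes, Jag2, a Notch ligand, was highest in basal cells at 2.23 ± 0.524, Dll1, another ligand, stood at 0.701 against 0.0126 in club cells, and the receptor Notch1 at 1.09. Notch3, a receptor active in differentiating airway cells, was found in 1.56% of basal cells. Of the growth factor receptors, Egfr (3.14 against 0.172 in club cells), Fgfr3 (3.52 against 0.683) and Fgfr2 (4.01 against 2.37) were all above their level in club cells. Per 10,000 transcripts other than Scgb1a1, which takes a large share of club cell transcripts, Fgfr2 was 3.79 against 3.20, and above club cells in 8 of 8 mice. The EGF receptor ligand Areg was found in 0.521% of basal cells. Wnt4, a Wnt ligand, was highest in basal cells, at 4.45 ± 1.94.

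Cyp2f2 stood out because it is a defining gene of club cells (chromosome 7, 27119909 to 27133660, plus strand). A Cyp2f2 transcript was found in 192 of 192 basal cells (95% exact binomial interval 98.1 to 100%), at 68.7 ± 8.54 per 10,000 (SD, n = 8 mice). It was 75.50, 73.18, 66.00 and 77.63 in C2, C5, D2 and D5 and 61.45, 56.14, 61.28 and 78.28 in F1, F3, M1 and M3, so that all mice held it at a similar level. Over single cells it ranged from 9.38 to 156, with a median of 66.6. Club cells held 59.1 ± 6.00 per 10,000, goblet cells 58.7 ± 9.20 and ciliated cells 25.02 ± 5.12. The level was above that of club cells in 6 of 8 mice. In B cells a Cyp2f2 transcript was found in 16.2% of cells, and after thinning to 2000 transcripts in 4.46% of B and 100% of basal cells.

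This order held on the scaled level only. Counted as UMIs per cell, basal cells held 74.4 ± 20.2 Cyp2f2 UMIs, club cells 227 ± 65.9 and goblet cells 248 ± 96.5, and basal cells were below club cells in all 8 mice. A second feature of the scale is that Scgb1a1 alone made up 43.6 ± 2.56% of the transcripts of club cells and 0.916 ± 1.499% of those of basal cells. Per 10,000 transcripts other than Scgb1a1, Cyp2f2 was 69.2 ± 10.8 in basal cells and 105 ± 9.43 in club cells. Which of the types holds more Cyp2f2 thus depended on the scale, while its presence in every basal cell did not.

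**Figure D2:**
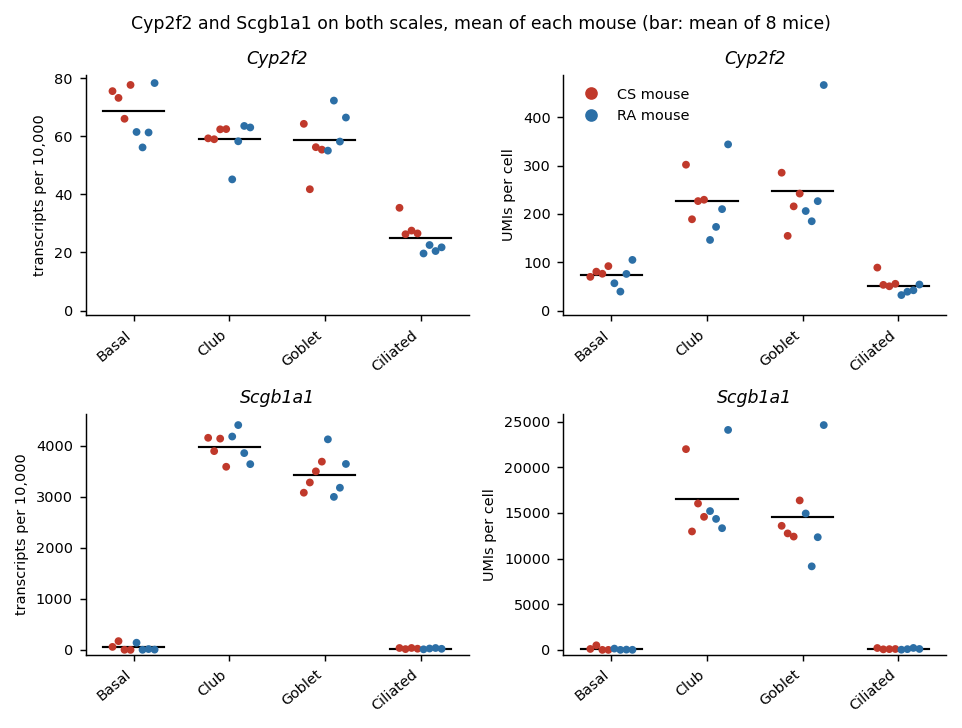
Cyp2f2 (top) and Scgb1a1 (bottom) in 4 airway cell types, as transcripts per 10,000 (left) and UMIs per cell (right), with 1 point per mouse (red CS, blue RA) and a bar at the mean of 8 mice. Basal cells lie at the level of club cells for Cyp2f2 on the left (68.7 and 59.1) and below them on the right (74.4 and 227), and near 0 for Scgb1a1 on both.

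Basal cells shared other club cell genes to differing degrees, and 14 of 20 club markers listed were found in at least 10% of them. Scgb1a1, the main secreted protein of club cells (chromosome 19, 9083636 to 9087958, minus strand), was found in only 14 basal cells (7.29%, 95% exact binomial interval 4.04 to 11.9%), against 98.6% of club cells, 14.2% of ciliated cells and 2.36% of B cells. Counts of Scgb1a1 were reduced by the removal of free RNA, and a cell that expresses it can read 0. The mean was 49.5 ± 69.1 per 10,000 against 3986 ± 286 in club cells, and it rested on few cells. The 2 cells with most of it, both from C5, held 3534 and 2306 per 10,000 and none of the 3 basal markers. Of the 10 cells of F1, 5 held Scgb1a1. For this reason results were also computed without these 14 cells, where Cyp2f2 was 69.8. Per 10,000 transcripts, several enzymes stood near their level in club cells. Cbr2, a carbonyl reductase, reached 59.6 ± 18.4 in basal and 66.4 ± 5.90 in club cells, Selenbp1, a selenium-binding protein, 16.2 ± 8.79 and 13.5 ± 1.76, and Ces1d, a carboxylesterase, 10.7 ± 3.24 and 9.57 ± 0.565. On the other scales they were lower in basal cells. Per 10,000 transcripts other than Scgb1a1, Cbr2 was 64.3 against 119 in club cells, Selenbp1 16.6 against 23.3 and Ces1d 10.5 against 16.3, and basal cells were above club cells in 0, 1 and 1 of 8 mice. Counted as UMIs per cell, Cbr2 was 67.6 in basal and 258 in club cells. The glutathione S-transferases Gstm1, Gstm2 and Gsta4 were highest in basal cells among all types. They stood at 20.2 ± 4.54, 8.46 and 5.54, against 7.06, 1.74 and 3.03 in club cells. For Gstm1 the next type was ciliated cells, close at 19.0 ± 2.59. Without Scgb1a1 in the total, Gstm1 and Gstm2 were still highest in basal cells, while Gsta4 was 5.77 against 7.25 in goblet cells. Other members were lower than in club cells. Hp (haptoglobin) stood at 2.03 against 38.6 and was found in 89 basal cells, and the secretoglobin Scgb3a2 at 4.56 against 89.6, found in 69. Retnla (0.0811 against 9.32) was found in 15 and Cckar (0.0135 against 1.07) in 3. Lypd2, a surface protein of the same list, was found in 168 basal cells, at 4.07 against 2.07 in club cells, and at 4.26 against 4.10 without Scgb1a1 in the total.

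Genes that define other cell types were found in few basal cells, while other members of their marker lists were common. Sftpc, which defines AT2 cells and drives the reporter switch in this strain, was found in 2 basal cells, Muc5b, a mucin of goblet and club cells, in 0, Ptprc, which encodes CD45, in 3, Foxj1, the ciliated cell factor, in 12, and Acta2, of smooth muscle, in 0. A count of 0 of 192 cells allows a share of up to 1.56% of cells with a UMI. It sets no limit on cells that express the gene, since counts were reduced by the removal of free RNA and a cell that expresses a gene can read 0. Of the AT2 list, Sftpb was found in 132 basal cells and Abca3 in 98, and 5 of 10 members in at least 10% of cells. Of the mesothelial list, Krt19 was found in 184 and Upk1b in 124, of the ciliated list Tubb4b in 139, of the goblet list Bpifa1 in 80 and of the tuft and ionocyte list Atp6v1c2 in 173. Atp6v1c2, a subunit of the proton pump, was highest in basal cells among all types, at 4.51 against 2.85 in AT2 cells, the next type. No member of the neuroendocrine and smooth muscle lists was found in 10% of basal cells. AT1 cells share 2 of their markers with basal cells, Aqp5 (13.7 against 24.6 per 10,000) and Pdpn (4.73 against 8.77), while Ager, which defines AT1 cells, stood at 0.179 against 165 and Hopx at 0.513 against 73.0. An eGFP transcript was found in 140 basal cells (72.9%), at 1.93 ± 0.970 against 71.2 in AT2 cells. It was found in 66.6% of club cells and 18.0% of B cells. The shares after thinning were 30.7% of basal, 19.8% of club and 8.19% of B cells. Cells that the authors labelled cell cycle had been left out. Of 12 cell cycle genes listed, the mitotic genes Mki67 and Top2a were found in 5 and 3 basal cells, while Stmn1 was found in 94, Pcna in 85, Mcm6 in 50, Tyms in 27 and Mcm2 in 25.

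The design then asks whether basal cells were as frequent after smoke as in room air. Their share of epithelial cells was 2.88 ± 0.462% after smoke (SD, n = 4 mice) and 1.74 ± 1.05% in room air (SD, n = 4 mice). The difference did not pass (exact two-sided permutation p = 0.114, 70 assignments, smallest possible p 0.0286). The share was 2.36% in C2, 2.72% in C5, 3.001% in D2 and 3.45% in D5. In RA mice it was 0.839% in F1 (95% exact binomial interval 0.403 to 1.54%), 0.877% in F3 (0.468 to 1.495%), 2.94% in M1 and 2.32% in M3. F1 and F3, the RA mice in which every basal cell held Xist, lay below the other 6 mice, and M1 lay among the CS mice. Xist was also found in 15 of 15 basal cells of C2 and 33 of 34 of C5. Whether sex has a part in the share was not tested. Each of the 4 sequencing lanes held 1 CS and 1 RA mouse, and in 3 of 4 lanes the share was higher in the CS mouse. Without M1, the RA mouse with the highest share, the difference was 1.54 percentage points against 1.14 with all mice. There it passed at the smallest p those numbers allow (exact permutation p = 0.0286). With any other single mouse left out it did not pass. Among airway cells the share was 4.198 ± 0.782% after smoke and 2.57 ± 1.31% in room air (exact p = 0.114). The depth of the cells overlapped between groups, with a median of 8994 ± 404 UMIs per basal cell in CS and 9977 ± 2253 in RA mice (exact permutation p = 0.429).

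**Figure D3:**
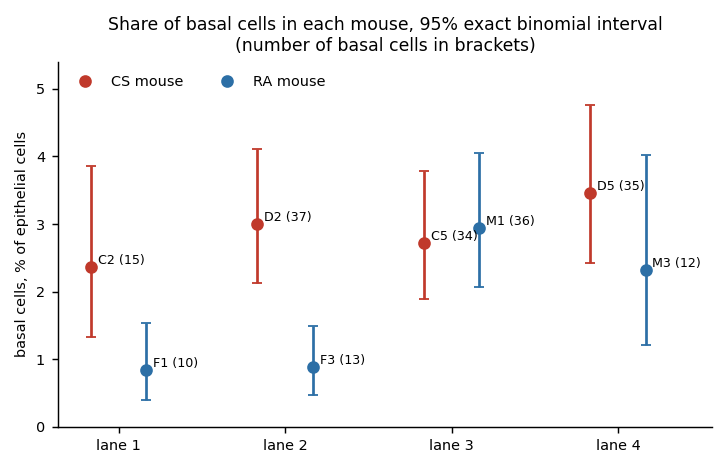
Basal cells as a percentage of epithelial cells (y axis) in each mouse, by sequencing lane (x axis; red CS, blue RA), with 95% exact binomial intervals and the number of basal cells in brackets. The CS mice lie between 2.36 and 3.45%, and the RA mice between 0.839 and 2.94%.

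For expression, 10,003 genes found in at least 10% of the basal cells of either group were tested with limma on log2(mean + 1) over 4 CS and 4 RA mice. No gene passed an adjusted p of 0.05 (percent called 0), and the smallest adjusted p was 0.0809. At an unadjusted p under 0.05 there were 575 genes higher in CS (5.75%) and 340 lower (3.4%), 9.15% together. In 295 genes (2.95%) all CS mice lay above all RA mice, and in 258 (2.58%) below. The split was not stable, since without mouse F1 it was 505 higher and 495 lower and under quantile scaling 450 and 481. Leaving out D2 gave 7 genes that passed (Dbp, Mt1, Mt2, Hspb1, Hspa8, Fos and Gm3511), and leaving out F1 gave 1 (Pdia6).

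Hspa8, the constitutive Hsc70 chaperone, had the smallest p. It was 2.64, 5.08, 5.12 and 3.13 per 10,000 in C2, C5, D2 and D5 and 11.23, 8.93, 9.34 and 10.4 in F1, F3, M1 and M3, so that the groups did not overlap. A Hspa8 transcript was found in 111 of 121 CS cells and in 71 of 71 RA cells. The log2 difference was -1.17 (SE 0.207, limma adjusted p = 0.0809) on the log2(mean + 1) scale, and the ratio of the group means without the added 1 was 2.50, RA over CS. Pdia6, a disulfide isomerase of the endoplasmic reticulum, was 1.26, 1.91, 2.18 and 1.89 in CS mice and 3.37, 5.83, 4.76 and 5.396 in RA mice in the same order, a log2 difference of -1.05 (SE 0.194, limma adjusted p = 0.0809). Since the groups overlapped for neither gene, both were by necessity lower in the CS mouse of all 4 lanes. All 20 chaperones listed had a difference below 0, beside 44.6% of all tested genes. Of the 20, 13 were lower at an unadjusted p under 0.05 (all tested genes, 3.4%), in 10 all CS mice lay below all RA mice (all tested genes, 2.58%) and none passed the adjusted threshold. With mice of at least 20 cells, which left 1 RA mouse, 8 were lower at that level and 1 had a difference above 0. The median log2 difference of the list was -0.65, beside 0.02 over all genes. The summed level of the list was 45.3, 84.7, 90.6 and 52.8 in C2, C5, D2 and D5 and 136, 125, 118 and 115 in F1, F3, M1 and M3. Among those of highest level, Hsp90ab1 had a log2 difference of -0.69, Hsp90aa1 -0.69, the small heat shock protein Hspb1 -1.31 and the inducible Hspa1a -0.76, where the groups overlapped for Hsp90aa1 and Hspa1a. Leaving out any 1 mouse moved the list median between -0.69 and -0.52, with 1 gene above 0 without C2 and 2 without F1. Hspa8 was also lower in club cells of CS mice, by a log2 difference of -1.19 (limma adjusted p = 0.0220), and in ciliated cells (-1.499, adjusted p = 0.00502).

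Dbp, a transcription factor and output of the circadian clock (chromosome 7, 45705088 to 45710203), had the smallest p among genes higher in CS. It was 1.90, 2.07, 0.5001 and 0.713 per 10,000 in C2, C5, D2 and D5, and 0.000, 0.088, 0.069 and 0.000 in F1, F3, M1 and M3. A Dbp transcript was found in 67 of 121 CS cells and in 3 of 71 RA cells. Dbp thus reached the filter for testing in CS cells only. The log2 difference was 1.07 (SE 0.191, limma adjusted p = 0.0809), and 3.18 with a pseudocount of 0.1, where it passed (adjusted p = 0.0242, range over the alternatives 0.0129 to 0.993). Of 9 clock output genes tested, 5 had an unadjusted p under 0.05, all higher in CS (all tested genes, 5.75%), namely Dbp, Tef, Nr1d1, Nr1d2 and Cry2, with a median of 0.25 for the list. This count was 3 without C5, 3 with summed values of a mouse and 1 of 8 genes with mice of at least 20 cells. With no filter on genes the count was 5 of 11. Nr1d1, the repressor REV-ERB alpha, ranged from 0.90 to 0.99 in the CS group and from 0.40 to 0.59 in the RA group. Of the 4 members of highest level, Nr1d2 had a log2 difference of 0.63, Tef 0.36, Nr1d1 0.36 and Hlf -0.03. Arntl, whose rhythm runs opposite to theirs, had a difference of -0.40 (limma, unadjusted p = 0.0311). Of the 5 genes of opposite phase tested it was the only 1 with an unadjusted p under 0.05 (all tested genes lower, 3.4%). The median of these 5 was -0.16. In club cells Dbp was higher in CS mice (log2 difference 0.51, limma adjusted p = 0.0170).

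**Figure D4:**
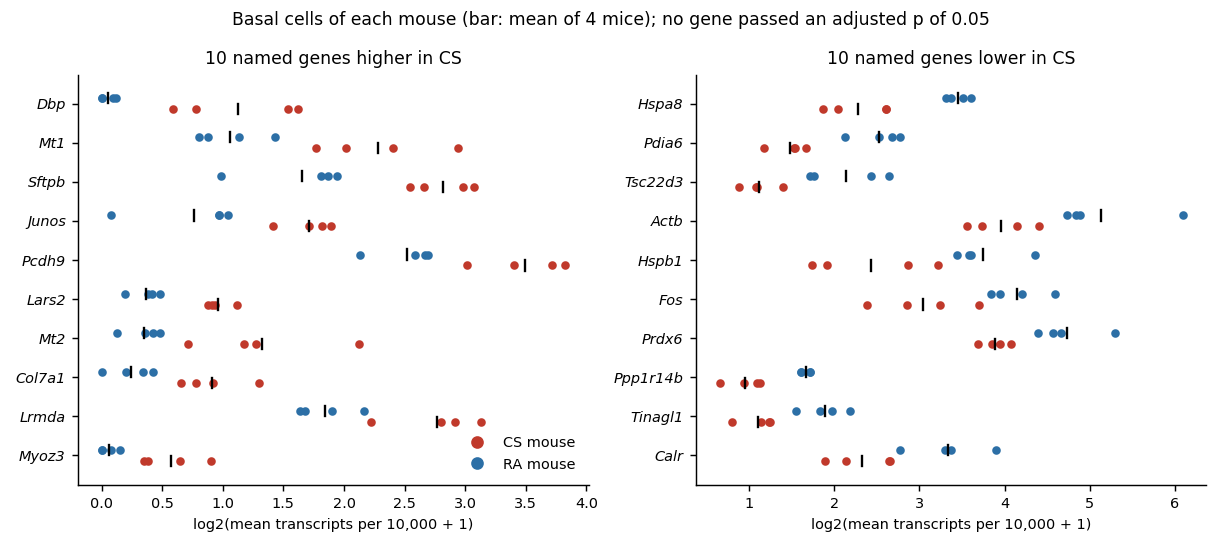
Level in basal cells, as log2(mean transcripts per 10,000 + 1) on the x axis, of the 10 genes with the smallest p in each direction whose groups do not overlap, with 1 point per mouse (red CS, blue RA) and a bar at the mean of 4 mice. For Hspa8 the CS mice lie between 2.64 and 5.12 per 10,000 and the RA mice between 8.93 and 11.23, and Actb of F1 stands apart at 67.4.

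Metallothioneins, which bind zinc and other metals, were the next group. Mt1 was 6.68, 3.04, 2.41 and 4.31 per 10,000 in C2, C5, D2 and D5 and 0.745, 1.19, 0.834 and 1.69 in F1, F3, M1 and M3, without overlap (log2 difference 1.22, SE 0.230, limma adjusted p = 0.0809). Mt2 had a log2 difference of 0.97 (adjusted p = 0.167). The iron storage genes of the same list did not go with them, with Fth1 at -0.17 and Ftl1 at -0.56. In club cells the difference of Mt1 was 0.34 (limma adjusted p = 0.572). In the direct test of basal against club cells no gene passed, Mt1 included (limma, smallest adjusted p 0.173).

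Sftpb, which encodes a surfactant protein, was 5.30, 6.91, 7.42 and 4.85 per 10,000 in C2, C5, D2 and D5 and 2.66, 2.85, 2.51 and 0.98 in F1, F3, M1 and M3 (log2 difference 1.16, SE 0.224, limma adjusted p = 0.0910). It was found in 68.8% of basal cells, 96.9% of club cells and 8.57% of B cells. After thinning these shares were 38.0%, 89.5% and 3.88%. The summed level of the 10 AT2 markers, most of it Sftpb and Sftpa1, was 6.40 to 16.4 in CS mice and 2.82 to 5.48 in RA mice. Since the sum holds Sftpb itself, it is no separate observation. Sftpc, which defines AT2 cells, was found in 1 CS and 1 RA cell. Without the cells that held Scgb1a1, the log2 difference of Sftpb was 1.31. Whether RNA from other cells has a part in it was not tested. Of the endothelial markers, Pecam1, Tmem100 and Calcrl had an unadjusted p under 0.05, higher in CS (3 of 5 tested, beside 5.75% of all tested genes). Tmem100 (17 of 121 CS and 4 of 71 RA cells), Cldn5 and Ramp2 reached the 10% filter in CS cells only. The count of 3 of 5 thus depends in part on the filter. The summed list reached 5.34 in D2, while C2, C5 and D5 held 1.13 to 1.56 and RA mice 0.113 to 2.31.

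The remaining genes named by smallest p were, among those higher in CS, Junos (an antisense transcript at Jun, whose count is uncertain since the use of strand in counting was not given in the sources used here), the protocadherin Pcdh9, the mitochondrial leucyl-tRNA synthetase Lars2, the anchoring fibril collagen Col7a1, Lrmda and Myoz3. Col7a1 was 1.46, 0.575, 0.712 and 0.888 per 10,000 in C2, C5, D2 and D5 and 0.147, 0.000, 0.267 and 0.344 in F1, F3, M1 and M3. Among those lower in CS were Tsc22d3 (the glucocorticoid-induced GILZ), Actb (beta-actin), Fos, Prdx6, Ppp1r14b, Tinagl1 and Calr (calreticulin). Actb was 10.8 to 20.2 in CS mice and 25.6 to 28.5 in F3, M1 and M3, with 67.4 in F1. The log2 differences of these 20 genes lay between -1.31 and 1.22, and their adjusted p between 0.0809 and 0.244.

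The genes by which basal cells were recognised gave no common direction. Of 17 basal markers tested, 2 had an unadjusted p under 0.05 higher in CS (Itga6, Col17a1) and 3 lower (Sfn and F3 among them), beside 5.75% and 3.4% of all tested genes, with a median log2 difference of -0.01. These counts were 1 and 1 with mice weighted by cells, and 0 and 2 without mouse F3. With mice of at least 20 cells, which left 1 RA mouse, the differences of the genes F3 (0.19) and Col17a1 (-0.0162) turned. Krt5 had a difference of 0.26 (SE 0.323), Trp63 0.42 (SE 0.216) and Krt15 -0.28 (SE 0.282). Cyp2f2 had a difference of 0.19 (SE 0.108, limma adjusted p = 0.604). Aqp3, the water and glycerol channel, had a difference of 0.27. Among keratins of simple epithelium, Krt19 was 4.32 to 7.96 per 10,000 in CS mice and 9.10 to 12.96 in RA mice (log2 difference -0.74, adjusted p = 0.321), Krt7 had a difference of -0.80, Krt8 of -0.41 and Krt18 of -0.16. None of 16 club markers tested was higher at an unadjusted p under 0.05 (all tested genes, 5.75%), and Selenbp1 and Ces1d were lower (3.4%). Of 17 hemidesmosome and basement membrane genes tested, 3 were higher at that level and none lower, beside 5.75% and 3.4% of all tested genes. The 3 were Itga6 (0.40), Col17a1 (0.46) and Col4a1 (0.19). Col4a1 (16 of 121 CS and 2 of 71 RA cells) reached the filter for testing in CS cells only. The count of 3 of 17 thus depends in part on the filter. The integrin and linker genes of highest level had differences of 0.33 (Dst), -0.23 (Itgb1) and 0.18 (Itgb4).

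Smoke-related enzyme lists were mixed. The aryl hydrocarbon receptor (AhR) responds to compounds of tobacco smoke. The 4 genes tested from its list were the receptor gene Ahr itself, its partner Arnt, Tiparp and Aldh3a1. The targets Cyp1a1, Cyp1b1 and Ahrr were found in few basal cells and were not tested. Cyp1a1 was found in 3 cells, all of the RA mouse M1, while Cyp1b1 was found in 8 and Ahrr in 2, all of CS mice. Of the 4, Aldh3a1 alone had an unadjusted p under 0.05 (all tested genes, 9.15%, log2 difference 0.28, limma adjusted p = 0.451). NRF2 switches on antioxidant genes. Its list of 16 tested genes also counts Nfe2l2, which encodes NRF2 itself, and its regulator Keap1. Of the 16, Gclc (0.69), which makes glutathione, and Txnrd1 (0.32) were higher at an unadjusted p under 0.05. At that level Txn1 (-0.45), Prdx1 (-0.65) and Prdx6 (-0.84) were lower. All tested genes gave 5.75% higher and 3.4% lower, and the list median was 0.02. The glutathione S-transferases Gstm1 (-0.41), Gstm2 (-0.50) and Gsta4 (-0.50) were lower at that level (all tested genes, 3.4%), and no member of the 12 tested was higher (5.75%). In the phase I list of 18 tested genes 3 were higher (Fmo1, Ephx1, Aldh3a1) and 2 lower (Cyp4b1, Ces1d), beside 5.75% and 3.4% of all tested genes. Fmo1 (27 of 121 CS and 6 of 71 RA cells) reached the filter for testing in CS cells only. The count of 3 higher thus depends in part on the filter. Cbr2 had a difference of 0.05.

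Of signalling genes, Fgfr3 was 6.60, 4.19, 3.61 and 4.31 per 10,000 in C2, C5, D2 and D5 and 1.199, 2.46, 2.36 and 3.42 in F1, F3, M1 and M3, without overlap (log2 difference 0.77, limma adjusted p = 0.351). Of the 17 genes tested in its list 1 did not overlap, beside 2.95% of all tested genes higher in CS and 2.58% lower. Of 20 airway transcription factor and Notch genes tested, Notch1 (0.44), its ligand Jag1 (0.43) and the forkhead factor Foxp1 (0.62) were higher at an unadjusted p under 0.05, and the epithelial factor Elf3 (-0.43) lower, beside 5.75% and 3.4% of all tested genes. Of 18 immediate-early genes, which respond within minutes to a stimulus, 16 had a difference below 0 (all tested genes, 44.6%), with a median of -0.27. This depended on the mice included, since without F1 the number above 0 went from 2 to 7 and the median to -0.098, and with mice of at least 20 cells 10 were above 0 and none reached an unadjusted p under 0.05. With all mice, Fos (-1.10), Jun (-0.52) and Klf6 (-0.86) were lower at an unadjusted p under 0.05 (all tested genes, 3.4%), Junb had a difference of -0.43 and Egr1 of 0.03. The number lower at that level was 1 without each of C2, D5 and F1 in turn and 6 without D2. Of 12 interferon and antigen presentation genes, 11 had a difference above 0 (all tested genes, 55.4%) and 3 were higher at that level (all tested genes, 5.75%), namely B2m (0.70), Tap1 (0.24) and Cd74 (0.66). Tap1 (33 of 121 CS and 6 of 71 RA cells), H2-Aa, H2-Ab1 and Isg15 reached the 10% filter in CS cells only. Ifit1 reached it in RA cells only, so that these counts depend in part on the filter. The summed level of the list was 39.9 in D2, while C2, C5 and D5 held 10.97 to 14.9 and RA mice 8.55 to 20.3, so that the groups overlapped. Without D2 the difference of B2m was 0.37. The reporter eGFP had a difference of 0.70 (adjusted p = 0.376) and tdTomato of -0.27.

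**Figure D5:**
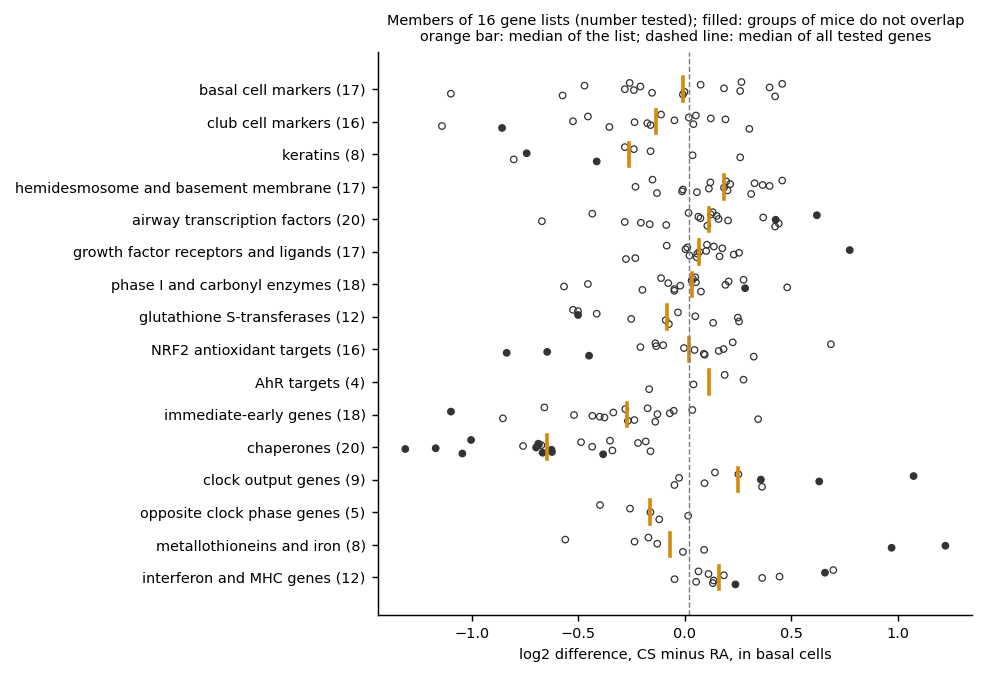
Log2 difference, CS minus RA, in basal cells (x axis) of the tested members of 16 gene lists (y axis, number tested in brackets). Filled points are genes whose CS and RA mice do not overlap, orange bars are list medians, from -0.65 for chaperones to 0.25 for clock output genes, and the dashed line is the median of all tested genes at 0.02.

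Whether the smoke response of basal cells differed from that of club cells was tested on the difference between both types within each mouse, for 12,072 genes. No gene passed an adjusted p of 0.05 (percent called 0), the smallest adjusted p was 0.173, and 502 genes (4.16%) were higher and 485 (4.02%) lower at an unadjusted p under 0.05. Hs6st3, a heparan sulfate sulfotransferase, had the smallest p, with a difference of 0.91 (SE 0.115, limma adjusted p = 0.173). It was nearly missing from basal cells, at 0.0279 per 10,000 in CS and 0.0424 in RA mice, while club cells held 0.658 in CS and 2.15 in RA mice. Lars2 had a difference of 0.66, and Txn1 (thioredoxin, -0.54), Pdia6 (-0.81), Ppp1r14b (-0.67), Cox6a1 (-0.48) and Psmc5 (-0.41) were the genes of smallest p in the other direction. Myoz3 (0.66), Sytl2 (0.39) and Dmd (0.56) completed those above 0. For Hspa8 the differences in both types were alike in size (-1.17 in basal and -1.19 in club cells), and the difference between them was 0.02 (limma adjusted p = 0.992).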

How the data were processed

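Lungs of 8 mice were profiled by 10x Genomics 3′ single-cell RNA-seq. The authors aligned reads with STAR 2.7.3a to GRCm38.p6 with GENCODE annotation and the reporter sequences, counted spliced and unspliced UMIs, removed free RNA with SoupX and annotated clusters by markers. The deposited matrix holds estimated counts, UMI counts after that removal, of which 1.28% are whole numbers (within 1e-06), so no count model was used. Cells labelled multiplets or cell cycle by the authors were left out, and no further doublet caller was run. Each cell was scaled to 10,000 transcripts and the mean over the basal cells of a mouse was its value. Genes found in at least 10% of cells of either group were tested on log2(mean + 1) with limma 3.58.1 in R 4.3.3, after tests on simulated data, with Benjamini-Hochberg adjustment at 0.05. A fold on this scale understates the change of low genes. For shares and depth, mice were permuted exactly between groups in two-sided tests (70 assignments, smallest p 0.0286). Mice of a group are separate animals.

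Genes were named by rule, namely the 3 markers and Cyp2f2, list members, the 20 genes with the largest ratio to other epithelial types, and for exposure the 10 genes in each direction with the smallest p whose groups do not overlap (5 for the comparison with club cells), without sex-linked, mitochondrial and unnamed genes. From each list up to 4 members of highest level were named. Other genes named were chosen after their values were seen. Some list members are counted with their list but not reported here. The cells and lists were chosen with earlier results of these data known. Gene positions are from GENCODE on GRCm38. Alternatives were other pseudocounts, filters, scalings, minimum cells, a lane block, weights by cells and leaving out each mouse. Leaving out cells with Scgb1a1, counting UMIs per cell and taking Scgb1a1 out of the total (cells of a mouse summed) were added after seeing the data.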

Additional observations from a re-analysis of the deposited data

Results flagged for a closer look

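Each group of 4 mice was searched for a mouse that stood apart from the other 3, by the gap to its neighbour as a share of the group's range. Of 144 groups, 11 held such a mouse, and chance gives about 1 in 20, or 7.2. In 4 of these groups the mouse was F1, the RA mouse with the fewest basal cells (10), which held 67.4 Actb transcripts per 10,000 (25.6 to 28.5 in the other RA mice), 19.5 of Hspb1 (9.90 to 11.19), 18.5 of Hsp90aa1 (9.08 to 10.5) and 140 of Scgb1a1 (2.04 to 15.9). Among the other RA mice, F3 held 0.0570 Junos transcripts per 10,000 (0.954 to 1.06 in the rest) and M1 held 9.10 of Krt19 (12.4 to 12.96). Of the CS mice, C2 held 0.574 of Dmd (0.284 to 0.298) and 1.98 of Txn1 (2.48 to 2.54), C5 held 16.6 of Krt15 (10.29 to 10.35), and D2 held 5.68 of Sfn (1.85 to 2.07) and 8.45 of B2m (2.60 to 2.97). Their causes were not tested.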

How the results depend on the processing

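Over settings other than leaving out 1 mouse, 770 of 784 values of named genes kept their direction and their side of the threshold. No gene passed in basal cells except Dbp with a pseudocount of 0.1 (1 gene), and leaving out 1 mouse gave 0 to 7 genes (7 without D2, 1 without F1, 0 without each of the others). Against club cells the 25% filter gave 1 gene (Hs6st3) and ciliated cells as the comparison gave 2 (Ctnna3 and Prdx1). The difference in share ran from 0.837 to 1.54 percentage points with 1 mouse left out. The difference in UMIs per basal cell was 117 with means over cells, against -982 with medians. With mice of at least 20 cells, 1 RA mouse (M1) remained, assumed to vary like the CS mice, and the log2 difference turned for Krt5 (-0.58), Jun (0.0925), Junb (0.32), Krt18 (0.26), Itgb1 (0.28), Itgb4 (-0.0109), Col17a1 (-0.0162) and F3 (0.19). It also turned with mice weighted by cells for Krt5 (-0.0551) and Krt18 (0.0208), with summed values for Egr1 (-0.14), and without cells that held Scgb1a1 for Cbr2 (-0.0463). Leaving out 1 mouse, it lay between -0.0592 and 0.52 for Krt5, -0.18 and 0.34 for Egr1, -0.0946 and 0.0415 for Hlf, -0.34 and 0.16 for Krt18, and -0.14 and 0.31 for Cbr2. The causes were not tested. Each mouse gave 10 to 37 basal cells, which limits the precision of its values. The labels give the groups no shared replicate numbers, but each lane held 1 mouse of each group. In the fit paired by sequencing lane (lane as a block) no gene passed, and 543 genes were higher and 311 lower at an unadjusted p under 0.05.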
